A study of Mus musculus with 6 samples.

Results

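The genes described here are the nuclear genes of the mitochondrial respiratory chain and the ATP synthase. They were taken as every probe whose RefSeq accession belongs to a gene with a symbol starting Nduf, Sdh, Uqcr, Atp5 or Cox4 to Cox8, which gave 128 probes of 97 genes among 55681 probes and 21154 genes with a symbol. Complex I had 37 of these genes, complex II 4, complex III 8, complex IV 19 and the ATP synthase 17, and 12 more encode assembly factors (8 Ndufaf genes of complex I and 4 Sdhaf genes of complex II). Ndufa4, now counted as a subunit of cytochrome c oxidase, was placed in complex IV, while its paralogue Ndufa4l2 stayed in complex I by its symbol. The symbols fit 100 protein-coding genes in the RefSeq table, and Ndufb1, Ndufb4b and Ndufb4c were not matched to a probe by accession.

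Blood-forming stem cells (hematopoietic stem cells, HSCs) were sorted from the bone marrow of mice and their RNA was measured. Each of 6 two-colour arrays carried a CDK6-/- sample in Cy5, and in Cy3 a wild-type pool of sorted HSCs given the same treatment. The 3 untreated arrays shared one wild-type pool, and the 3 arrays of mice treated with polyI:C, a synthetic RNA that induces interferon, shared the other. A ratio below is log2 of Cy5 over Cy3, so a value below 0 means less signal from CDK6-/- cells. Each pool is 1 control sample, so a ratio leaves out the spread between wild-type mice, and as no dyes were swapped, a probe's dye bias and the genotype cannot be told apart. That bias cancels in the difference of ratios between treatments. The series calls the samples of a group biological replicates, while the sources used here do not give the strain, age, polyI:C dose, sort gate or number of mice.

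The respiratory chain passes electrons from NADH through complex I, or from succinate through complex II, to ubiquinone, then through complex III and cytochrome c to oxygen at complex IV. Complexes I, III and IV pump protons across the inner mitochondrial membrane, and the ATP synthase, also called complex V, lets them back in to make ATP. Most subunits are encoded in the nucleus, and their genes are known to be transcribed together in many tissues. Long-term HSCs are known to rely largely on glycolysis at rest and to raise mitochondrial respiration when they are activated or differentiate.

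All 12 HSC markers tested were well above background in both channels on all 6 arrays. Cdk6 had 1 tested probe, with ratios of 0.40, -0.41 and 0.24 on the untreated arrays, where neither channel was above background, and of -0.26, -0.44 and -1.28 on the polyI:C arrays. The position of the probe relative to the deletion is unknown, and its values say nothing of the knockout itself. Between 47.0 and 76.5% of spots were well above background in Cy5 and between 54.4 and 75.6% in Cy3, with polyI:C array 3 highest in both channels and no spot saturated. The ratio of Xist, the noncoding RNA of the inactive X, was -3.98 for untreated array 3, -3.42 for polyI:C array 3 and between 0.42 and 1.87 for the others. Results without these 2 arrays are given where they differ.

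Of the 97 genes, 93 passed the filter on dim probes, and 88 of these were well above background in both channels on all 6 arrays, including all 36 tested genes of complex I, all 8 of complex III and all 17 of the ATP synthase. The 5 others were Ndufaf3, Ndufaf6, Sdhaf3, Cox6a2 and Cox7a1. The 4 genes that did not pass were tissue-restricted paralogues: Cox7b2 and Cox8c were above background on 0 of 6 arrays in either channel, Cox8b on 1 of 6 in each channel, and Ndufa4l2 on 1 of 6 in Cy5 and 2 of 6 in Cy3. The member probes were bright, with a median log2 level of 12.10 to 12.58 in Cy5 and 12.17 to 12.57 in Cy3 on the 6 arrays. The assembly factors were dimmer, with medians of 8.28 to 9.93 in Cy5 and 9.23 to 9.97 in Cy3. These are levels of fluorescence, which do not rank transcripts of different genes.

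In untreated cells, respiratory chain genes lay slightly below the wild-type pool after loess normalization within each array, and few of them passed the test. The 93 tested members had a median ratio of -0.19, against -0.05 over all 22632 genes tested, and 76 members were below 0. By limma with Benjamini-Hochberg adjustment, 7 members were lower (adjusted p under 0.05) and 0 were higher, while 20 members (21.5%, against 28.5% of all genes) had an unadjusted p under 0.05. The called members are 7.53% of those tested, beside 9.95% of all genes called lower and 3.05% called higher, so the share called lower was below the background. Ratios were below 0 on all 3 untreated arrays for 41 members (44.1%, against 28.3% of all genes) and above 0 on all 3 for 8 (8.6%, against 20.9%). In bulk RNA of sorted cells, fewer cells of a type and less RNA per cell cannot be told apart.

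The direction of the set depended on the centring of the arrays. With each array centred on its median in place of loess, the median of all genes moved to 0.30 and that of the members to 0.40, and 3 members were called lower (Ndufaf3, Cox6a2 and Sdhaf3) and 17 higher. Those 17 are 18.3% of the members, beside 21.5% of all genes called higher with that centring. On single arrays the members' median minus that of all genes was -0.08, -0.07 and -0.27 for the untreated arrays with loess, and 0.16, 0.16 and -0.11 with median centring. Untreated array 3, one of the arrays low in Xist, gave the lowest value under both, and without it the loess median of the members was -0.11.

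**Figure D1:**
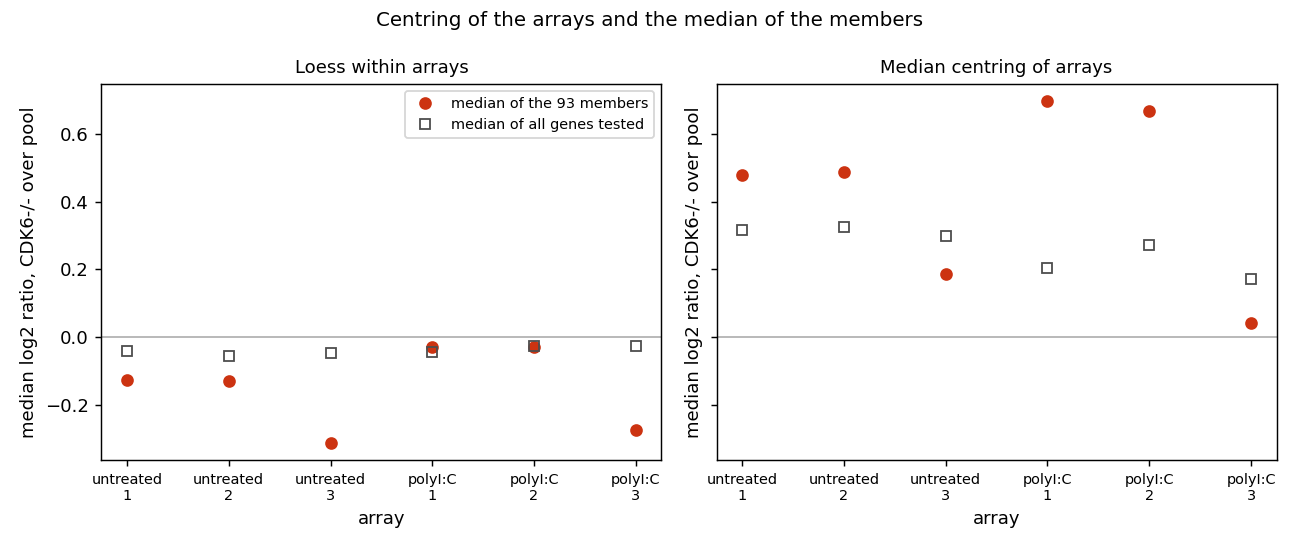
Median log2 ratio of the 93 tested members (filled circles) and of all genes tested (open squares) on each of the 6 arrays, after loess within arrays (left) and after centring each array on its median (right). With loess the members lie near all genes on polyI:C arrays 1 and 2 and below them on the other arrays, and with median centring they lie above them on 4 arrays and below them on untreated array 3 and polyI:C array 3.

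Single members spanned -1.48 to 0.54 in untreated cells, but 80 of 93 (86%, against 74.1% of all genes) were within 0.5 of 0. The standard error of a member's ratio was 0.18 at the median and 0.30 at most. Complex I had a median of -0.20 with 1 member called lower, complex II -0.10 with 1, complex III -0.19 with 0, complex IV -0.15 with 2 and the ATP synthase -0.10 with 0. The assembly factors of complex I had a median of -0.30 with 2 of 8 called lower, and those of complex II -0.66 with 1 of 4. Together, 4 of 81 subunits (4.94%) and 3 of 12 assembly factors (25%) were called lower, beside 9.95% of all genes. The difference between these shares was not tested. One of the 3 assembly factors, Sdhaf3, passed the filter on dim probes only through the pool, where it is higher. Among 34 assembly factors and partners outside the rule, 0 were called lower and 2 higher.

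**Figure D2:**
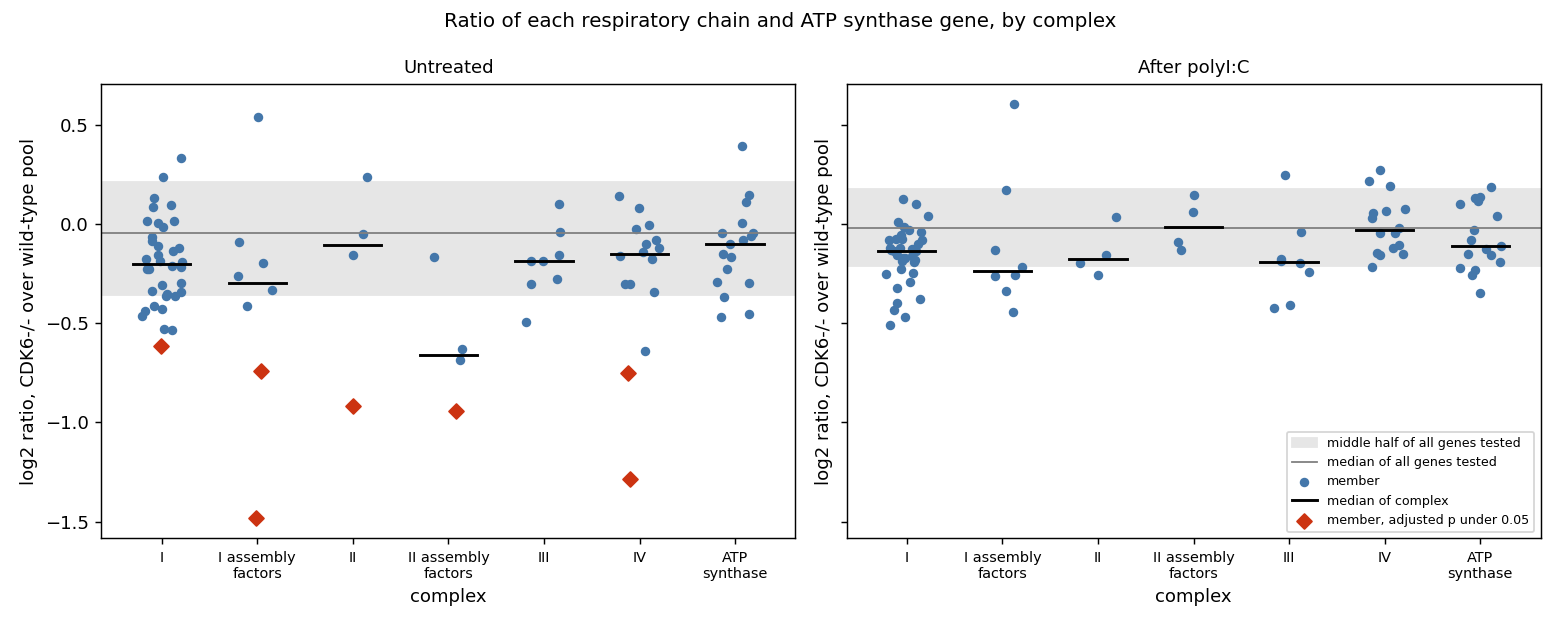
Mean log2 ratio of CDK6-/- over the wild-type pool for each tested member (points, 3 arrays each) by complex, in untreated cells (left) and after polyI:C (right), with the median of each complex (black lines) and the middle 50% of all genes tested (grey band). The 7 members called lower (red diamonds) are all in the untreated panel, where ratios run from -1.48 to 0.54, and after polyI:C all lie between -0.51 and 0.60. With median centring in place of loess, 3 of the 7 calls remained and the medians of the members lay above 0.

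Cox6a2 was the member with the lowest adjusted p. It encodes the heart and skeletal muscle form of subunit 6a of cytochrome c oxidase, at chr7:128205435-128206366 (GRCm38.p6). Its ratio was -1.90, -1.21 and -0.74 on untreated arrays 1 to 3, and 0.02, -0.09 and 0.24 on the polyI:C arrays. The 3 untreated values lay below all 3 polyI:C values, with no overlap. The untreated mean of -1.28 (SE 0.22, SD 0.58, n = 3) had a limma adjusted p of 0.00588. The difference of ratios between treatments was 1.34 (SE 0.31) with a limma adjusted p of 0.062, and it was 1.34 within slide 1 and 1.12 within slide 2.

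In Cy5, the log2 level of Cox6a2 was 7.17, 7.37 and 9.03 in untreated CDK6-/- cells, where it was well above background on 2 of 3 arrays, and 8.59, 8.70 and 9.88 after polyI:C. The untreated pool read 9.07, 8.58 and 9.77, and the treated pool 8.56, 8.79 and 9.64. The untreated pool was 1 sample hybridised repeatedly, and its readings of Cox6a2 spanned more than 1 log2 unit. Cox6a2 shares 70 bases at its end with Itgad, which encodes an integrin and had an untreated ratio of -0.12, 0.24 and -0.69. Which of the genes a probe there read was not tested. The next integrin gene, Itgax (CD11c), was lower in untreated CDK6-/- cells, with ratios of -1.03, -0.86 and -0.74 (mean -0.87, SE 0.19, limma adjusted p = 0.0154). The 2 other neighbours did not pass: Itgam, at the far side of Itgax, had 0.88, 0.51 and 0.72 (mean 0.70, limma adjusted p = 0.125), and Armc5 had a mean of 0.13. The 4 neighbours had an untreated median of -0.03, and they were chosen after their values were seen.

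Cox6a1, the widely expressed paralogue of Cox6a2, had untreated ratios of -0.32, -0.37 and -0.34 (mean -0.34, SE 0.16, limma adjusted p = 0.197). It had 0.01, -0.32 and -0.16 after polyI:C, all above the untreated values, though array 2 only narrowly.

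Ndufaf3, an assembly factor of complex I at chr9:108565587-108567436, had the lowest mean of the members. Without treatment its ratio was -2.22, -0.58 and -1.64, and with polyI:C it was -0.17, -0.66 and -0.18, so untreated array 2 overlapped the treated arrays. The untreated mean was -1.48 (SE 0.28, SD 0.83, limma adjusted p = 0.00807), and CDK6-/- signal was above background on 2 of 3 untreated arrays. The Cy5 level was 6.81, 8.92 and 7.69 untreated against 9.21, 8.90 and 9.29 after polyI:C, while the pools stayed between 9.03 and 9.56. Without untreated array 1 the mean was -1.11 with an adjusted p of 0.0517, and without untreated array 3 the adjusted p was 0.053. The difference of ratios was 1.14 (SE 0.39, adjusted p = 0.17) over all arrays, 1.76 within slide 1 and -0.08 within slide 2.

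Ndufaf7, a methyltransferase needed for complex I assembly, lies at chr17:78937106-78948052. It had untreated ratios of -1.07, -0.60 and -0.56 (mean -0.74, SE 0.21, limma adjusted p = 0.042). After polyI:C it had -0.18, -0.96 and -0.19, so the groups overlapped. It was the call closest to the threshold and was lost under 10 of 14 other settings.

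Sdhaf3, which helps insert the iron-sulfur subunit of complex II, lies at chr6:6955971-7039661. Its ratios were -0.66, -1.41 and -0.76 untreated (mean -0.94, SE 0.23, limma adjusted p = 0.0235) and 0.16, 0.23 and -0.65 after polyI:C, with all treated values above all untreated ones by a narrow margin. In untreated CDK6-/- cells it was not well above background on any of the 3 arrays. The level read there was 1.92-fold lower than in the pool, an estimate limited by signal near background. Without untreated array 2 the mean was -0.71 (limma adjusted p = 0.131). It passed the filter on dim probes through the pool, where it is higher, and without that filter the adjusted p was 0.0388. The other assembly factors of complex II did not pass: Sdhaf4 had a mean of -0.69, Sdhaf2 -0.63 and Sdhaf1 -0.17. Sdhaf3, Sdhaf4 and Sdhaf2 were below 0 on every untreated array, while Sdhaf1 had -0.00, -0.21 and -0.30.

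Sdhc, a membrane anchor of complex II at chr1:171129157-171150640, had 2 probes that disagreed. The brighter gave -1.18, -0.49 and -1.10 untreated (mean -0.92, SE 0.21, limma adjusted p = 0.0193) and -0.31, 0.16 and -0.62 after polyI:C. The dimmer had an untreated mean of -0.06 from 0.04, 0.27 and -0.48, and with both probes averaged Sdhc was at -0.49 (adjusted p = 0.121). The call for Sdhc therefore rested on 1 of its 2 probes.

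Cox6b1, a small subunit at the interface of the complex IV dimer, lies at chr7:30616971-30626114. It had untreated ratios of -0.71, -0.58 and -0.96 (mean -0.75, SE 0.17, SD 0.19, limma adjusted p = 0.0163) and -0.04, -0.01 and -0.01 after polyI:C. After loess the groups did not overlap and the treated arrays were nearly equal to the pool, while with median centring the mean after polyI:C was 0.65 (adjusted p = 0.0625). The untreated pool read 13.24, 13.36 and 13.21 and the treated pool 12.75, 13.01 and 12.95, while in CDK6-/- cells it was 12.53, 12.77 and 12.24, then 12.70, 13.00 and 12.94. The difference of ratios was 0.73 (SE 0.23) with an adjusted p of 0.146.

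Ndufb9, an accessory subunit in the membrane arm of complex I at chr15:58933801-58939516, had -0.54, -0.77 and -0.53 untreated (mean -0.61, SE 0.16, SD 0.13, limma adjusted p = 0.0353). After polyI:C it had -0.03, -0.11 and -0.25, with no overlap. With median centring the untreated value was -0.07 for Ndufb9 (adjusted p = 0.827) and -0.10 for Cox6b1 (adjusted p = 0.74). The calls for Sdhc and Ndufaf7 were lost too, at -0.51 and -0.36. Cox6a2 alone of the 7 kept its call in every setting tried on this comparison, with means of -1.59 to -0.98 and adjusted p of 0.00557 to 0.0382.

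**Figure D3:**
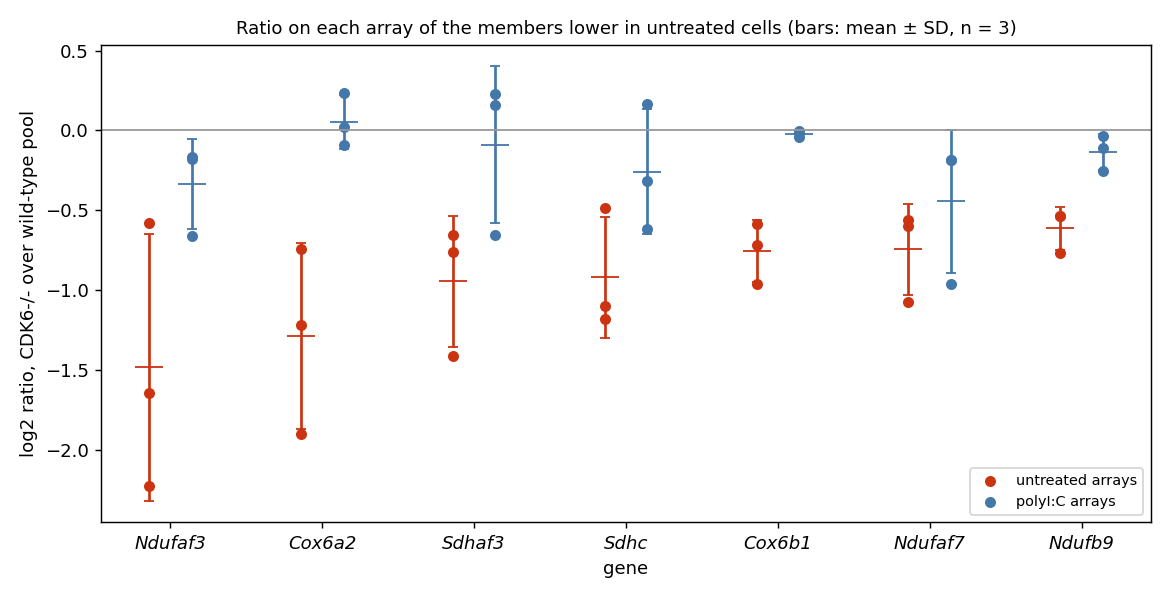
Log2 ratio of CDK6-/- over the wild-type pool on each array for the 7 members called lower in untreated cells, for untreated (red) and polyI:C (blue) arrays, with mean and SD over 3 arrays, after loess. Cox6a2, Sdhaf3 (by a narrow margin), Cox6b1 and Ndufb9 have no overlap between treatments, and Ndufaf3, Sdhc and Ndufaf7 overlap. The 7 were picked by their low untreated ratios, which favours treated values above them. Every polyI:C array lay above every untreated array in 14.3% of all genes, and no member passed the test of the difference of ratios. With median centring Cox6b1, Ndufb9, Sdhc and Ndufaf7 were not called.

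The catalytic core of complex I gave mixed values. Ndufs1, which carries iron-sulfur clusters of the electron input module, had untreated ratios of -0.25, 0.11 and 0.42 (mean 0.10, SE 0.19). Ndufs7, which holds the last iron-sulfur cluster, had -0.55, -0.16 and -0.59 (mean -0.44, SE 0.17, limma adjusted p = 0.129). Ndufv1, the flavin subunit that oxidises NADH, had -0.55, 0.11 and 0.03 (mean -0.14). The highest member of complex I was Ndufa12 with 0.26, 0.65 and 0.09 (mean 0.33, SE 0.18, limma adjusted p = 0.255), and the lowest was Ndufb9. None of these core subunits passed the test, and their signs differed from one another.

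A second, dimmer probe of Ndufb11, a membrane arm subunit, gave 1.14, 0.91 and 0.71 in untreated cells, while the brighter one gave 0.12, 0.26 and -0.14. With each probe tested by itself, the dimmer one was the single member probe called higher (0.92, SE 0.18, limma adjusted p = 0.01). After polyI:C both probes of Ndufb11 were near 0, with means of -0.16 and -0.14. Over the 23 members with several tested probes the untreated means of a gene's probes differed by 0.14 at the median, and in 6 they had opposite signs.

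In complex II, Sdha, the flavoprotein that oxidises succinate, had untreated ratios of 0.02, 0.30 and 0.39 (mean 0.24, SE 0.17). Sdhb, the iron-sulfur subunit, had -0.06, -0.30 and -0.11 (mean -0.16, SE 0.16). Sdhd, the other membrane anchor, had -0.48, 0.31 and 0.02 (mean -0.05, SE 0.19). The brighter probe of Sdhc lay below these 3 partners and the dimmer one among them.

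In complex III, Uqcrc1, a core subunit, had -0.69, -0.40 and -0.39 untreated (mean -0.49, SE 0.16, limma adjusted p = 0.0766) and -0.36, -0.41 and -0.46 after polyI:C (mean -0.41, limma adjusted p = 0.311). It was below 0 on all 6 arrays after loess without passing either test. Its partner Uqcrc2 had -0.23, -0.30 and 0.06 untreated and -0.20, -0.39 and -0.67 after polyI:C. Uqcrfs1, the Rieske iron-sulfur protein, had 0.12, 0.14 and 0.06 untreated, the highest mean of its complex at 0.10.

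In complex IV, Cox4i1, the widely expressed form of subunit 4, had 0.17, -0.16 and -0.90 (mean -0.30, SE 0.21). Untreated array 3 set that mean. Its hypoxia-linked paralogue Cox4i2 had 0.40, 0.22 and -0.19 (mean 0.14, SE 0.21), the highest of the complex. Cox5a and Cox5b, both nuclear-encoded subunits, had means of -0.10 (SE 0.16) and -0.01 (SE 0.18).

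Cox6b2, the testis form of Cox6b1, had -1.10, -0.07 and -0.76 untreated (mean -0.64, SE 0.21, limma adjusted p = 0.0773) and a mean of -0.04 after polyI:C. Cox7a1, the muscle form of subunit 7a, had -0.45, 0.59 and -0.50 and its widely expressed paralogue Cox7a2 had -0.27, -0.28 and -0.36. Cox7a2l, which takes part in supercomplexes, had a mean of 0.08, Cox7b -0.08, Cox8a -0.14 and Ndufa4 -0.16. None of these passed the test.

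In the ATP synthase, the catalytic head subunits had untreated means of 0.39 for Atp5a1 (0.31, 0.16 and 0.71, SE 0.18, limma adjusted p = 0.174), -0.05 for Atp5b (-0.29, 0.07 and 0.08) and 0.15 for Atp5c1, the central stalk (-0.23, 0.32 and 0.35). Atp5a1 was above 0 on all 3 arrays and was the highest subunit of the whole set. The 3 genes of the proton-carrying c ring encode the same mature protein, and their means were -0.37 for Atp5g1, 0.11 for Atp5g2 and -0.15 for Atp5g3. Atp5k, a small membrane subunit, was lowest with -0.66, 0.03 and -0.78 (mean -0.47, SE 0.20, limma adjusted p = 0.145).

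With loess, ratios after polyI:C were closer to 0 over all genes and also over the members. The members had a median of -0.13 against -0.02 over all genes tested, with a range of -0.51 to 0.60. Within 0.5 of 0 were 91 of 93 members (97.8%, against 88.7% of all genes), beside 86% and 74.1% in untreated cells. By limma 0 members were called lower and 0 higher, beside 0.654% and 0.327% of all genes, and 7 members (7.53%, against 13.4% of all genes) had an unadjusted p under 0.05. Ratios were below 0 on all 3 arrays for 36 members (38.7%, against 21.6%) and above 0 on all 3 for 5 (5.38%, against 16.3%). The medians on the 3 arrays were -0.03, -0.03 and -0.28, so polyI:C array 3 set the median, and without it the members were at -0.04. With median centring the arrays were at 0.70, 0.67 and 0.04, all genes were at 0.21 over the group, and 16 members were called higher (17.2%, against 10.3% of all genes) and 0 lower. The members' median was then 0.43, against 0.40 untreated, so with that centring it was not closer to 0.

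By complex, the medians after polyI:C were -0.14 for complex I, -0.18 for II, -0.19 for III, -0.03 for IV and -0.11 for the ATP synthase. The assembly factors were at -0.24 for complex I and -0.01 for complex II. Ndufaf5, an assembly factor of complex I, had the highest value and the lowest adjusted p, with 0.69, 0.36 and 0.75 (mean 0.60, SE 0.18, limma adjusted p = 0.164) after 0.03, -0.17 and -0.44 untreated. Ndufv1 was lowest at -0.46, -0.31 and -0.75 (mean -0.51, SE 0.19, limma adjusted p = 0.283). Ndufs7 had -0.26, -0.54 and -0.60 (mean -0.47), and Ndufs1 a mean of -0.19.

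The extremes of the other complexes after polyI:C were small. In complex II they were Sdha at 0.04 and Sdhc at -0.26, and in complex III Uqcrh, the hinge protein, at 0.25 and Uqcrc2 at -0.42. In complex IV they were Cox7c at 0.27 and Ndufa4 at -0.22, and in the ATP synthase Atp5k at 0.18 and Atp5h, a stator subunit, at -0.35. Sdhb had a mean of -0.16 and Sdhd of -0.20, Cox4i1 of -0.11, Cox5a of -0.04 and Cox5b of 0.03, Atp5a1 of -0.11, Atp5b of -0.15 and Atp5c1 of -0.03. All of these were within 2 standard errors of 0 except Uqcrc2 and Atp5h.

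The difference of ratios asks whether the genotype ratio changed with treatment. Its median over members was 0.07, against 0.04 over all genes, with 0 members called lower and 0 higher beside 0.208% and 1.61% of all genes. At an unadjusted p under 0.05 there were 9 members (9.68%, against 16.5% of all genes). Every polyI:C array lay above every untreated array in 14 members (15.1%, against 14.3% of all genes) and below in 5 (5.38%, against 8.52%), so these shares were near the background. Within slide 1 the median difference was 0.23 and within slide 2 it was 0.06, beside 0.02 and 0.05 over all genes. The ratios on the 2 groups of arrays share no control pool.

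In CDK6-/- cells alone, polyI:C was compared with no treatment on the Cy5 levels. Members had a median difference of 0.22 against 0.03 over all genes, and 70 of 93 were above 0. None passed the test by limma (0 lower and 0 higher, beside 0.0574% and 0.106% of all genes), and 6 (6.45%, against 10.3% of all genes) had an unadjusted p under 0.05. Every treated level lay above every untreated level in 19 members (20.4%, against 9.19% of all genes) and below in 0 (0%, against 7.72%). The median was 0.46 within slide 1 and 0.29 within slide 2. Without polyI:C array 2 it was 0.14 and without polyI:C array 3 it was 0.38. In the same comparison the median of the megakaryocyte markers was 1.03 (2 of 9 called higher), of T and NK cell markers 1.35 (1 of 9 higher), of erythroid markers -1.39 (1 of 11 lower), of B cell markers -1.14 and of HSC markers -0.48. Their part in the values of the members was not tested.

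Among the members grouped by complex, the assembly factors had the highest medians of this comparison, 0.72 for complex I and 0.69 for complex II. Complex I subunits were at 0.23, complex II at 0.34, complex III at 0.09, complex IV at 0.09 and the ATP synthase at 0.00. Ndufaf4, an early assembly factor of complex I, had the lowest adjusted p. Without treatment its Cy5 level was 9.73, 9.08 and 9.74, and with polyI:C 10.75, 10.89 and 10.74 (difference 1.27, SE 0.32, limma adjusted p = 0.195), with no overlap. Its level in the wild-type pools was 9.55, 9.62 and 9.63, then 11.00, 11.08 and 10.95, a difference of 1.40 between 1 pool and 1 pool, with no test.

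Sdhaf1, which protects the iron-sulfur subunit of complex II during assembly, had 9.89, 9.75 and 9.55 untreated and 11.13, 10.79 and 10.66 after polyI:C (difference 1.13, SE 0.31, limma adjusted p = 0.232). The pools differed by 0.90 in the same direction. Ndufaf2, another factor of complex I, had 8.36, 8.40 and 9.39, then 9.67, 9.73 and 9.32 (difference 0.86, SE 0.38), and the pools differed by 1.53. Over all members the pool after polyI:C minus the untreated pool had a median of 0.11, from -0.73 to 1.53, against -0.00 over all genes. Ndufaf4, Sdhaf1 and Ndufaf2 were singled out after their values were seen, and none passed the test.

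**Figure D4:**
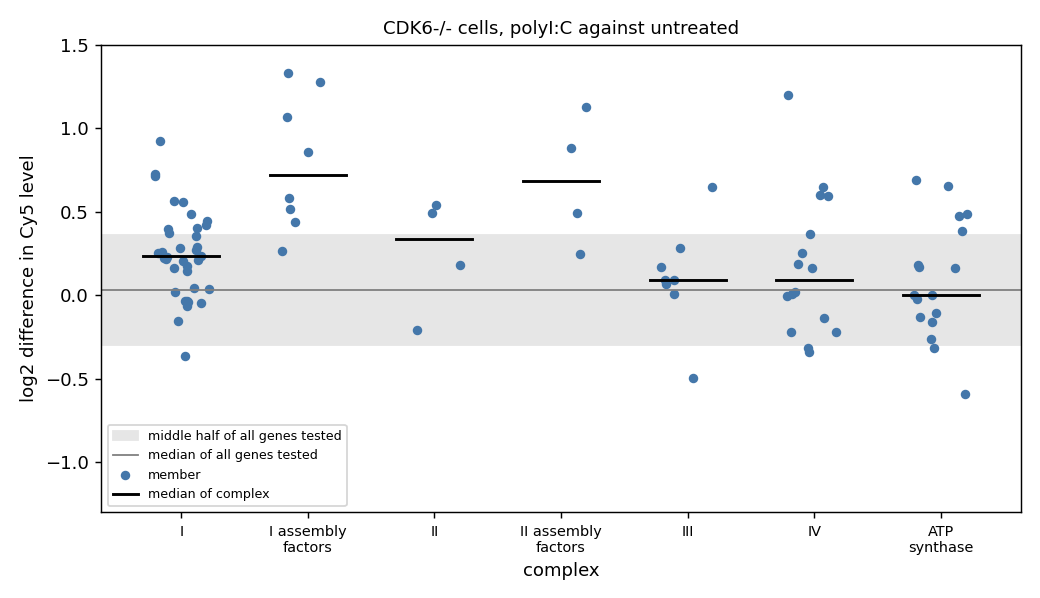
Difference in log2 Cy5 level between polyI:C and untreated CDK6-/- cells for each tested member (points, 3 arrays against 3), by complex, with the median of each complex (black lines) and the middle 50% of all genes tested (grey band). The 8 assembly factors of complex I lie between 0.27 and 1.33 and the 4 of complex II between 0.25 and 1.13, and no member passed the test.

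Promoters were read for the members in the RefSeq table (GRCm38.p6), which held 80 of the 97, over the 250 bases before the first listed start and on both strands. NRF1, a factor known to act on many respiratory chain genes, has a motif of GCGCA and GCGC separated by 1 base of any kind, which was found in 13 of 80 (16.2%) and in 3.86% of 27025 promoters. The box CCAAT was found in 35 of 80 (43.8%, against 34.5%), the GABPA motif ACTTCCGG in 3 (3.75%, against 2.93%) and the YY1 motif AAGATGGC in 0 (0.0%, against 1.59%). The 13 tested members with the NRF1 motif had medians of -0.21 untreated, -0.16 after polyI:C and 0.24 for polyI:C within CDK6-/- cells, and the 65 without it had -0.19, -0.12 and 0.23. The median ratios were therefore nearly the same with and without the motif.

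The promoters of 2 members called lower and of Cox6a1, which was not called, show this range, with the NRF1 motif or CCAAT (on either strand) in capitals and each read 5′ to 3′ on the minus strand. Cox6a1 (chr5:115348959-115349208) has 2 NRF1 motifs and 1 CCAAT, Cox6b1 (chr7:30626115-30626364) has 2 CCAAT and Ndufaf3 (chr9:108567437-108567686) has 1 CCAAT.
Cox6a1: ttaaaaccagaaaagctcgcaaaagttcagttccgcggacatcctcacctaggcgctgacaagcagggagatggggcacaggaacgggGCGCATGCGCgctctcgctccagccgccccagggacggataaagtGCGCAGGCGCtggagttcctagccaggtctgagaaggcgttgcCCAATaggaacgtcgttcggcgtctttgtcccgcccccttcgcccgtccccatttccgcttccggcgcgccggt
Cox6b1: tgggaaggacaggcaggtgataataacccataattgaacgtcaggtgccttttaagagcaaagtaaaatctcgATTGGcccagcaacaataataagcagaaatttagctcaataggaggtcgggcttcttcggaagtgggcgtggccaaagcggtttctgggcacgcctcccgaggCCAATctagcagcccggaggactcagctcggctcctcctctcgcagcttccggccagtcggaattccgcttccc
Ndufaf3: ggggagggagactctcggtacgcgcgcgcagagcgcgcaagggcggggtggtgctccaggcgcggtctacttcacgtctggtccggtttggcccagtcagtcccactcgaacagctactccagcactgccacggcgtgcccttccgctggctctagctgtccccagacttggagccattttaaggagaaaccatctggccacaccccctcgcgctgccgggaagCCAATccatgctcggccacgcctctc

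The genotype ratios of genes of the same pathway outside these symbols also stayed mostly near 0. Among 34 tested assembly factors and partners, such as cytochrome c and the copper chaperones of complex IV, 0 were lower and 2 higher in untreated cells. Their median was -0.04. Over all genes, 9.95% were called lower and 3.05% higher, and the difference from these shares was not tested. Hccs, which attaches heme to cytochrome c, had 0.82, 0.86 and 1.16 (mean 0.95, SE 0.19, limma adjusted p = 0.0109), and Tmem70, needed for ATP synthase assembly, had 0.67, 0.35 and 0.93 (mean 0.65, SE 0.18, limma adjusted p = 0.0385). Both were above 0 on all untreated arrays, opposite to the called members. Within CDK6-/- cells, polyI:C minus untreated Cy5 level had a median of 0.48 over these 34 genes, against 0.03 over all genes. Every treated level lay above every untreated level in 13 (38.2%, against 9.19% of all genes) and below in 0 (0%, against 7.72%). The pool after polyI:C minus the untreated pool had a median of 0.49 over them.

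Of 15 tested regulators of mitochondrial gene expression, 1 was lower and 1 higher in untreated cells, beside 9.95% and 3.05% of all genes. Polg, the mitochondrial DNA polymerase, had -0.60, -1.44 and -0.54 (mean -0.86, SE 0.21, limma adjusted p = 0.0245), and Ppargc1b, a coactivator of mitochondrial genes, had 0.71, 0.77 and 0.67 (mean 0.72, SE 0.17, limma adjusted p = 0.0234). Of 17 genes of the TCA cycle, which feeds the chain with NADH and succinate, 0 were called, beside the same shares of all genes untreated. Their medians were -0.01 untreated and -0.17 after polyI:C. Differences of these lists from the shares over all genes were not tested. None of these lists had a call after polyI:C, in the difference of ratios or within CDK6-/- cells.

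Some lists of markers of other blood and marrow cells had ratios far from 0 that differed between treatments. On untreated arrays 1 to 3 the median ratio of 9 B cell markers was -1.74, -1.17 and -2.34, that of 12 granulocyte markers -0.65, -0.30 and -1.62 and that of 8 endothelial and stromal markers -1.19, -0.84 and -1.47. After polyI:C the granulocyte markers had 0.59, 0.67 and 1.42, the B cell markers -0.47, 0.19 and -0.04 and the endothelial and stromal markers -0.14, -0.21 and -0.18. The 11 erythroid markers had -0.49, -0.11 and -0.61 untreated and -1.73, -0.27 and -1.62 after polyI:C. Other lists lay nearer 0 or were mixed in untreated cells. T and NK cell markers had 0.16, -0.22 and -0.07 untreated and 0.32, 0.02 and 0.00 after polyI:C. Untreated, monocyte and macrophage markers had -0.82, 0.12 and -1.18, and megakaryocyte markers -0.97, -0.37 and -0.04. After polyI:C the monocyte and macrophage markers had 0.14, 0.29 and 0.71, and the megakaryocyte markers 0.19, 0.52 and 0.23. All 12 granulocyte markers were above background in both channels on all arrays, against 2 of 9 B cell and 4 of 8 endothelial and stromal markers. The HSC markers had medians of -0.00, -0.16 and 0.48 untreated and 0.19, 0.06 and -0.46 after polyI:C. Their part in the genotype ratios of the members was not tested.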

How the data were processed

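Per the labels' protocols, the RNA of 6 samples was amplified (TransPlex WTA2), the cDNA was dyed with platinum-bound fluorophores that prefer guanine, and each sample was hybridised with a wild-type pool to an Agilent array. The arrays were read with Feature Extraction 11.5.1.1 on an mm9 design, per the file headers. For every spot the deposited scanner files give a median intensity, its background and the software's processed intensity. They also hold a log10 ratio and flags, which the authors' software wrote. The deposited value table is a log2 ratio of processed Cy5 to Cy3, matched to the scanner files within 2.52e-06 for probes with 1 spot. Probes with several spots were not compared. The authors' own tests of genes are not given in these sources.

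Median signals were used, as the files hold no mean signals. They were corrected with normexp (offset 50) and normalized by loess in limma 3.58.1 (R 4.3.3), without flagged (0.657%) and control spots among 59305 per array that were not controls. A probe was tested (31800 were) if either channel was well above background throughout the 3 arrays of some group, and the probe of highest mean intensity stood for its gene (22632 genes). RefSeq (GRCm38.p6) gave symbols for 22244 of 23839 accessions. Ratios were fitted with a mean per group over all 6 arrays (4 residual degrees of freedom), and Cy5 levels after quantile normalization of average intensities. Errors are standard errors of the fit (SE) or SD over 3 arrays, and adjusted p-values are limma's over all genes, threshold 0.05. For comparisons between treatments, with 3 against 3 arrays, the smallest exact permutation p is 0.1. The ratio of a single group was tested over its 3 arrays against equal signal in both channels, which that bound does not cover. The number of arrays limits precision. The fit was tested on simulated data.

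The members and gene lists were chosen with earlier results of these data known. Values per array are given for called members, the extremes of each complex, core subunits and paralogue sets, except 1 member whose values are not reported here. Alternatives were median centring, processed signals, no filter on dim probes, probes averaged or each by itself, offset 10, slide as a block (statmod 1.5.0), another quantile normalization and leaving out arrays. Slides held untreated arrays 1 and 3 with polyI:C array 1, untreated array 2 with polyI:C array 2, and polyI:C array 3 alone. P-values measure the spread between these samples, which were 3 per group.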

Additional observations from a re-analysis of the deposited data

Results flagged for a closer look

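For 3 of the 93 tested members the ratio had one sign on all untreated arrays and the opposite sign on all polyI:C arrays. The same held for 1492 of the 22632 genes tested, a larger share than among the members. Ndufaf2 had 0.58, 0.12 and 0.92 untreated and -0.05, -0.05 and -0.29 after polyI:C, a difference of -0.67 (SE 0.27, limma adjusted p = 0.246). Uqcrfs1 had 0.12, 0.14 and 0.06, then -0.19, -0.17 and -0.37, a difference of -0.35 (SE 0.23, limma adjusted p = 0.494). Uqcrh had -0.05, -0.01 and -0.07, then 0.33, 0.39 and 0.03, a difference of 0.29 (SE 0.23, limma adjusted p = 0.589). None of these differences passed the test. The opposite signs hold after loess, and with median centring the mean ratios had the same sign in both treatments, at 0.81 and 0.08 for Ndufaf2, 0.65 and 0.25 for Uqcrfs1, and 0.92 and 1.25 for Uqcrh. The difference of Ndufaf2 was -0.81 within slide 1 and -0.16 within slide 2.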

How the results depend on the processing

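No paired analysis was possible because arrays were numbered in accession order, which pairs nothing, and no label ties a treated sample to an untreated one. Median centring gave 3 members lower and 17 higher in untreated cells, with a median of 0.40 and 6199 genes called (2942 with loess), and 16 higher after polyI:C, with a median of 0.43 and 2576 genes called (222). It called 241 genes for the difference of ratios (411) and 65 within CDK6-/- cells (37). Processed signals gave 2 members lower untreated, with 1966 genes called, and 34 and 192 genes called after polyI:C and for the difference. Without the filter on dim probes the genes called were 94 after polyI:C, 253 for the difference and 16 within CDK6-/- cells. Each probe by itself gave 1 member higher, and offset 10 called 105 genes after polyI:C. Slide as a random block called 125 genes within CDK6-/- cells, and as a fixed block 17 there and 0 for the difference. Without both arrays low in Xist, chosen after seeing the data, 1 member was lower untreated, with 1638, 0, 0 and 0 genes called in the 4 comparisons.

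Leaving out each array in turn gave 1 to 9 members lower in untreated cells (1 without untreated array 1 or 3, 9 without polyI:C array 3), 0 higher, medians of -0.21 to -0.11 and 1377 to 3426 genes called. After polyI:C it gave 0 members, medians of -0.17 to -0.04 and 7 to 219 genes. The difference of ratios had 0 members lower, 0 to 1 higher (Ndufaf3 at 1.59, adjusted p = 0.0395, without untreated array 2), medians of 0.00 to 0.18 and 6 to 379 genes. Within CDK6-/- cells it gave 0 members, medians of 0.14 to 0.38 and 0 to 23 genes. Where a group was left with 2 arrays, the spread came from both groups. Of the 7 calls, 6 were lost under 4 to 10 of 14 settings, and none changed sign. The causes of these changes were not tested. Signal near background limits Ndufaf3, Sdhaf3 and Cox6a2 in untreated CDK6-/- cells.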
